A study of Mus musculus with 30 samples.

Results

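Genes of synaptic vesicle release were followed on Affymetrix MG-U74Av2 expression arrays of mouse olfactory epithelium, the sensory sheet of the nasal cavity. The set was Snap25, Rab3a, Syp, Stx1a, Vamp2, Syt1 and Syn1, and a probe set was taken where the probe table gave it exactly 1 gene from that set. This rule, which uses no measured value, found 8 of the 12422 probe sets that are not array controls. They stood for 6 of the 7 genes, of 8251 genes on the array in all, with 2 probe sets each for Rab3a and Vamp2. Syn1 was not analysed here. At the last time measured, 48 h after surgery, Syt1 and Snap25 had fallen in both genotypes, while no fall passed the test for Vamp2, Stx1a, Syp or Rab3a.

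The tissue came from 6-week-old mice. Times count from removal of the olfactory bulbs, where the axons of olfactory sensory neurons end, on both sides (bulbectomy). Arrays were labelled mutant or wild type for SR-A, a scavenger receptor of macrophages that Msr1 encodes, at 0, 2, 8, 16 and 48 h, with 3 arrays in each of the 10 groups. Strain, sex, the form of the SR-A mutation and what was done to the 0 h mice are not stated in the labels. Whether each array is a mouse of its own is not stated either, so the p-values cover only the spread from array to array, part of which may be technical.

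Neurons release transmitter when a vesicle fuses with the presynaptic membrane. Syntaxin 1A (Stx1a) and SNAP-25 (Snap25) on that membrane zip together with VAMP2, also called synaptobrevin 2 (Vamp2), on the vesicle to form the SNARE complex that drives fusion. Synaptotagmin 1 (Syt1) is the vesicle's calcium sensor, synaptophysin (Syp) is an abundant vesicle membrane protein, RAB3A (Rab3a) is a small GTPase that cycles on and off vesicles, and synapsin I (Syn1) tethers vesicles in reserve. Mature olfactory sensory neurons release glutamate from axon terminals in the bulb, and their cell bodies, which hold most of their mRNA, lie in the epithelium.

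Promoter sequence is shown for Syt1, called lower at 48 h in both genotypes, and for Rab3a, called lower in wild type at 2 h. RefSeq sequences on build GRCm38.p6, from 250 bases before to 50 bases after an annotated start, were given for 5 of the 7 genes, namely Stx1a, Rab3a, Syt1, Syp and Syn1, with 7 starts in all. Capitals mark the GC box GGGCGG on either strand.
Syt1, chr10:109010926-109011225, minus strand: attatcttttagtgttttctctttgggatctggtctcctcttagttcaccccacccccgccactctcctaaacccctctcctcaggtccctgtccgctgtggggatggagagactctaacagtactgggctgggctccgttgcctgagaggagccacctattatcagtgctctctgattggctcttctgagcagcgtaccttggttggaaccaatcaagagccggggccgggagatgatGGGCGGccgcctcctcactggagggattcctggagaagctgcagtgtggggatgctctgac
Syt1, chr10:109009062-109009361, minus strand: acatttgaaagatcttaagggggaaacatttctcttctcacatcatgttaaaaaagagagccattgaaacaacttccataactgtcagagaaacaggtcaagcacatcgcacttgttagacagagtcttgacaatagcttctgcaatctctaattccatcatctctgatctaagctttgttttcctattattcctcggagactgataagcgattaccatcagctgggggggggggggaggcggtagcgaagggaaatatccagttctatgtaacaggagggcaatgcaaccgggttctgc
Rab3a, chr8:70754453-70754752, plus strand: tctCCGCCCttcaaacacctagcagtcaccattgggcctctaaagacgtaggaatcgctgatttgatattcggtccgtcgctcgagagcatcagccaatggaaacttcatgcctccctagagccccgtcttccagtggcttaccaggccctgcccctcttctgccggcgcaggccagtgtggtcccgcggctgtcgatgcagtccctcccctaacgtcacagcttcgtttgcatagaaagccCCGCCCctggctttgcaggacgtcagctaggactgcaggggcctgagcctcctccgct
The GC box of the first Syt1 window began 11 bases before the start, and the second Syt1 window held none. The Rab3a window shown held 2 GC boxes, both on the opposite strand, and the window of its second start, which is not shown, held none. Also not shown are the windows of Stx1a, with 3 GC boxes, Syp, with 2, and Syn1, with none. Neither Stx1a nor Syp was called for a change from 0 h, so the GC box did not mark the called members. Both strands of all 7 windows were also searched for TGACGTCA, the cAMP response element, found only in that of Syn1, where it overlapped no GC box. Of all 32851 promoter windows of 300 bases, 35.66% held the GC box and 1.79% TGACGTCA.

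Scaling was equal across arrays, with a 2% trimmed mean of 1500.7 to 1500.9. Precision is limited by having 3 arrays per group. Msr1 does not check the labels, since its 2 dim probe sets, which were not tested, were higher in the mutant-labelled arrays, with medians of 444.5 and 206 against 161 and 90.1 in the wild-type-labelled ones (n = 15 each). Groups are therefore called mutant-labelled and wild-type-labelled. The mutant-labelled 2 h arrays differed from the rest in probe sets that check RNA quality. Their Gapdh 3' minus 5' log2 differences were 5.59, 0.15 and 1.27 in replicates 1, 2 and 3, against -0.31 to -0.13 in the other 27 arrays. The actin controls gave 2.27, 1.02 and 0.43 in the same arrays, against 0.45 to 1.11 in the others. Comparisons that need these arrays were fitted on all 30 arrays, and every other comparison on the 27 without them.

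Of the 8 probe sets, 7 exceeded the pooled median signal of 572 on at least 3 arrays and were tested among 6968. The eighth, 161790_at of Rab3a, lay at or below the background floor of 113.7 on 27 of 30 arrays and was not tested. Of the 7, the brighter Vamp2 probe set and those of Snap25 and Stx1a exceeded the median on all 30 arrays, the dimmer Vamp2 probe set on 14, and the rest on 27 to 29. Values below are MAS5 signal, a linear intensity, in replicate order 1 to 3. A change is a difference of mean log2 signal ± its standard error from limma, with p adjusted by the Benjamini-Hochberg method over the 6968 probe sets and a threshold of 0.05. Levels of different probe sets were not compared, since probes differ in brightness.

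Syt1, the calcium sensor, fell in both genotypes. Its probe set 93005_at gave 2069, 1312 and 1912 in the mutant-labelled 48 h arrays and 4572, 3393 and 3383 in the mutant-labelled 0 h arrays. All 3 of the 48 h arrays lay below all 3 of the 0 h arrays, with a log2 change of -1.11 ± 0.15 (adjusted p = 6.5e-05), 2.16-fold lower. In the wild-type-labelled arrays the signals were 2438, 2333 and 2729 at 48 h and 5798, 4798 and 4328 at 0 h, again without overlap, and the change was -0.99 ± 0.15 (adjusted p = 0.000126). In bulk tissue, fewer cells of a type and less RNA per cell cannot be told apart.

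By 16 h Syt1 had fallen past the threshold in wild type, whose arrays gave 2955, 3194 and 2361, below every wild-type-labelled 0 h array, with a change of -0.81 ± 0.15 (adjusted p = 0.00357). The mutant-labelled 16 h arrays gave 3204, 2779 and 3164, also below their own 0 h arrays, but the change of -0.30 ± 0.15 (adjusted p = 0.27) did not pass. The difference between these changes, mutant minus wild type, was 0.51 ± 0.22 (adjusted p = 0.196), so a genotype difference in the 16 h change of Syt1 was not called. At 8 h the signals were 3114, 3398 and 3629 in mutant-labelled and 4584, 4756 and 4496 in wild-type-labelled arrays, overlapping the 0 h arrays in both. With all 30 arrays in the fit the log2 changes stayed the same by construction, but the adjusted p of Syt1 was 0.122 at 48 h in the mutant, 0.151 at 48 h in wild type and 0.299 at 16 h in wild type. That fit takes its spread also from the mutant-labelled 2 h arrays, in which Syt1 read 303, 983 and 3700.5.

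Over the 9 groups other than mutant-labelled 2 h, Syt1 was lowest in the mutant-labelled 48 h group, with a mean of 1764 ± 399.5 (SD, n = 3), and highest in the wild-type-labelled 0 h group, with 4974 ± 751. The only neighbours in that order whose arrays did not overlap were the last pair, the mutant-labelled and wild-type-labelled 48 h groups.

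**Figure D1:**
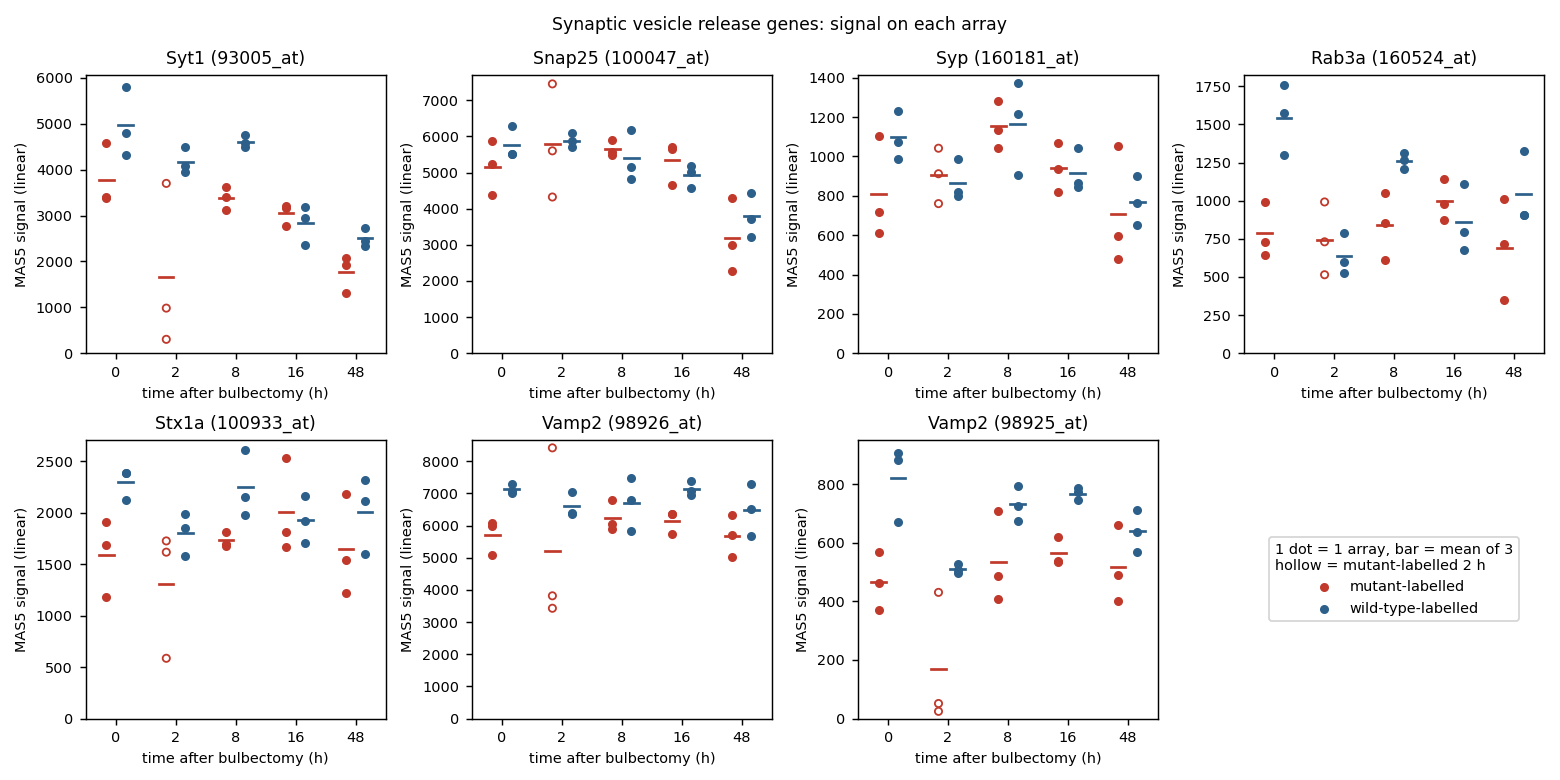
MAS5 signal (linear axis from 0) of the 7 tested probe sets against time after bulbectomy in h, with 1 dot per array, a bar at the mean of 3 arrays, mutant-labelled left of wild-type-labelled, and hollow dots for the mutant-labelled 2 h arrays. In both genotypes all 48 h dots of Syt1 and Snap25 lie below their 0 h dots, while the brighter Vamp2 probe set (98926_at) stayed between 5019 and 7479 outside the hollow dots.

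Snap25, the membrane SNARE, gave no call at 8 or 16 h and fell at 48 h in both genotypes. Probe set 100047_at gave 4297, 2277 and 2994 in the mutant-labelled 48 h arrays and 5866, 5249 and 4374 in the mutant-labelled 0 h arrays, a change of -0.73 ± 0.17 (adjusted p = 0.00605), or 1.66-fold lower. The wild-type-labelled arrays gave 3203, 3717 and 4447 at 48 h and 5500.2, 6288 and 5506 at 0 h, a change of -0.62 ± 0.17 (adjusted p = 0.0122). In neither genotype did the 48 h and 0 h arrays overlap. At 8 and 16 h its changes were 0.14 and 0.06 in the mutant and -0.10 and -0.23 in wild type, and none passed. The wild-type call rested on single arrays, since the adjusted p was 0.0542 without 0 h replicate 2 and 0.079 without 48 h replicate 1. The mutant call did not pass when only the mutant-labelled 48 and 0 h groups were fitted (adjusted p = 0.138).

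The other SNARE partners gave no call at 48 h. Stx1a, the syntaxin, gave 2177, 1541 and 1217 at 48 h and 1912, 1682 and 1179.7 at 0 h in mutant-labelled arrays, and 1595, 2114 and 2314 at 48 h and 2126, 2385 and 2386 at 0 h in wild-type-labelled arrays. The 48 h and 0 h arrays overlapped in both genotypes, with changes of 0.04 ± 0.20 (adjusted p = 0.931) in the mutant and -0.21 ± 0.20 (adjusted p = 0.498) in wild type. Vamp2, the vesicle SNARE, gave on its brighter probe set 98926_at 5701, 6339 and 5019 at 48 h and 5996, 6073 and 5087 at 0 h in mutant-labelled arrays, and 5667, 6526 and 7297 at 48 h and 7087, 7303 and 7028 at 0 h in wild-type-labelled arrays. Its changes were -0.01 ± 0.11 (adjusted p = 0.961) and -0.14 ± 0.11 (adjusted p = 0.387), with a standard error below those of the other members. The dimmer Vamp2 probe set 98925_at changed by 0.14 in the mutant and -0.35 in wild type (adjusted p = 0.68 and 0.192), so the probe sets differed in sign in the mutant and neither passed.

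Syp, the vesicle membrane protein, gave 1052, 595 and 479 at 48 h and 1104, 716 and 612 at 0 h in mutant-labelled arrays, with a change of -0.23 ± 0.23 (adjusted p = 0.56). In wild-type-labelled arrays it gave 649.6, 764 and 900.0 at 48 h and 1075, 1229 and 986 at 0 h. Those arrays did not overlap, yet the change of -0.52 ± 0.23 (adjusted p = 0.125) did not pass. At 8 h Syp read 1134, 1044 and 1279.8 in mutant-labelled arrays, overlapping the 0 h arrays, with a change of 0.55 ± 0.23 (adjusted p = 0.229).

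Rab3a, the vesicle GTPase, changed early in the wild-type-labelled arrays. Its probe set 160524_at gave there 1576, 1757 and 1303 at 0 h, 595, 526 and 786 at 2 h, 1313, 1267 and 1209 at 8 h, 793, 1108 and 674 at 16 h and 907, 908 and 1324 at 48 h. The 2 h arrays lay below all 0 h arrays, and the change of -1.29 ± 0.28 (adjusted p = 0.0278), 2.45-fold lower, was the single member call in wild type at 2 h. It was lost when any 1 of the 6 arrays was left out, with adjusted p of 0.0525 to 0.123, and was 0.0505 with no filter on low signals. At 8 h the arrays overlapped the 0 h arrays again, with a change of -0.28 ± 0.28 (adjusted p = 0.824). At 16 h the change was -0.87 ± 0.28 (adjusted p = 0.0565), just outside the threshold though the arrays did not overlap. At 48 h it was -0.58 ± 0.28 (adjusted p = 0.165). No other member passed in wild type at 2 h. The dimmer Vamp2 probe set changed there by -0.67 ± 0.18 (adjusted p = 0.0572, and 0.289 with all 30 arrays), also without overlap. Stx1a (-0.35) and Syp (-0.34) did not overlap their 0 h arrays either, but did not pass. The share of all probe sets without overlap is not given, so non-overlap alone does not set these members apart. Syt1, Snap25 and the brighter Vamp2 probe set overlapped theirs.

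In the mutant-labelled arrays Rab3a gave 731, 641 and 994 at 0 h, 992, 515 and 730.4 at 2 h, 614, 1053 and 856 at 8 h, 1144, 872 and 978 at 16 h and 1009, 716 and 350.1 at 48 h. Every later group overlapped the 0 h arrays and no change passed. The 16 h change, mutant minus wild type, differed by 1.22 ± 0.40 (adjusted p = 0.108), and the 2 h change by 1.18 ± 0.42 (adjusted p = 0.0684), so neither difference was called. The 2 h difference rests on the mutant-labelled 2 h arrays. It was 1.43 and passed (adjusted p = 0.0261) without replicate 2 of them, and was 0.70 with replicate 2 alone, a single array. The dim probe set of Rab3a read 22.5 to 110.7 in mutant-labelled and 24 to 158.4 in wild-type-labelled arrays, and has no order at that level.

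**Figure D2:**
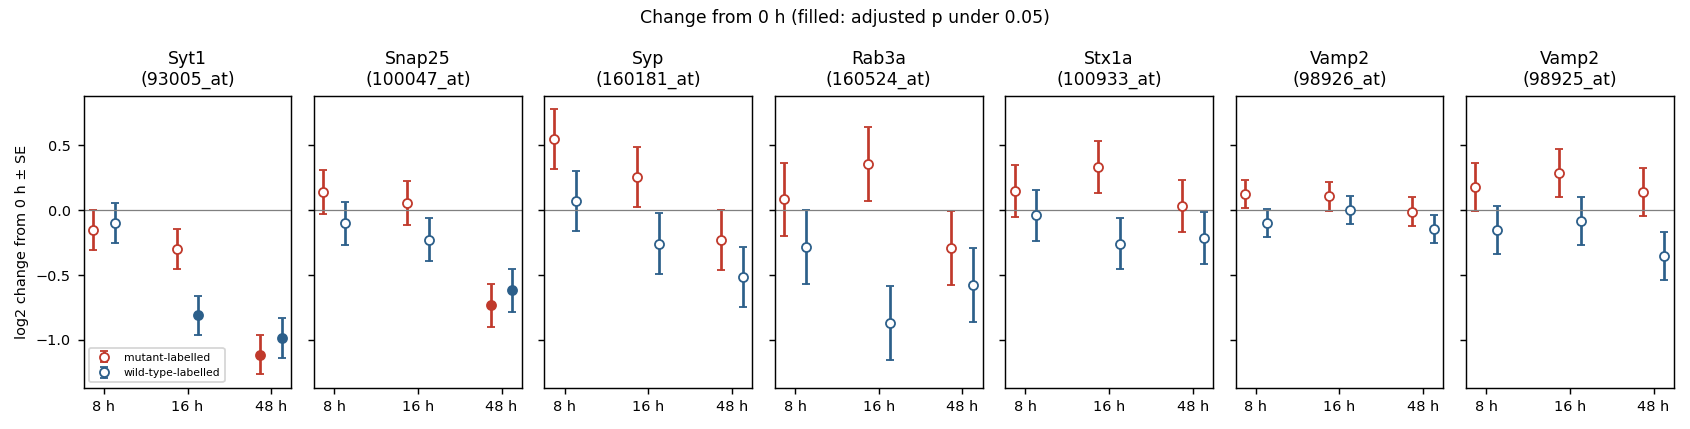
Log2 change from 0 h ± SE (y axis) at 8, 16 and 48 h (x axis) for the 7 tested probe sets, in mutant-labelled (red) and wild-type-labelled (blue) arrays, filled where the adjusted p was under 0.05. The filled points are Syt1 at 48 h in both genotypes and at 16 h in wild type, and Snap25 at 48 h in both.

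Counted over the 7 tested probe sets, 0, 0 and 2 fell at 8, 16 and 48 h in the mutant, beside 0.832%, 2.54% and 6.79% of all 6968 probe sets. In wild type 1, 0, 1 and 2 fell at 2, 8, 16 and 48 h, beside 0.66%, 0.0431%, 4.65% and 9.04%. No member rose in any of these comparisons. At an unadjusted p under 0.05, limma gave 1 and 0 members at 8 and 16 h in the mutant and 0 at 8 h in wild type. The test over all times left out 2 h in the mutant and used all 5 times in wild type, so its counts are not like for like. In the mutant 2 members varied (Snap25 and Syt1), beside 21.0% of all probe sets. In wild type 4 varied (Snap25, Rab3a, Syt1 and the dimmer Vamp2 probe set), beside 27.9%. The difference of the 8, 16 and 48 h changes between genotypes was called for 0 members, beside 5.96% of all probe sets. At an unadjusted p under 0.05 that limma test gave 2 members (Rab3a and Syt1). No share of all probe sets at an unadjusted p is given beside the unadjusted counts.

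Several members were already lower in the mutant-labelled arrays at 0 h. At 0 h Rab3a read 731, 641 and 994 in mutant-labelled and 1576, 1757 and 1303 in wild-type-labelled arrays, without overlap, a difference of -0.98 ± 0.28 (adjusted p = 0.0173). The brighter Vamp2 probe set read 5996, 6073 and 5087 in mutant-labelled and 7087, 7303 and 7028 in wild-type-labelled arrays, a difference of -0.32 ± 0.11 (adjusted p = 0.0366). The dimmer Vamp2 probe set read 569, 371 and 461 against 882, 907 and 669.7 in the same groups, a difference of -0.82 ± 0.18 (adjusted p = 0.00388). Both Vamp2 probe sets thus went the same way, without overlap between the groups. Stx1a also differed without overlap, by -0.56 ± 0.20 (adjusted p = 0.0474), close to the threshold.

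These 4 of 7 calls at 0 h stood beside 13.5% of all probe sets called lower. Leaving out 1 array gave between 1 and 6 calls, and the fit of all 30 arrays gave 1. With wild-type-labelled 0 h replicate 2 left out the adjusted p of Rab3a was 0.0592, that of Stx1a 0.106 and that of the brighter Vamp2 probe set 0.0876. Stx1a was also lost without any of 4 other arrays, wild-type-labelled 0 h replicates 1 and 3 and mutant-labelled 0 h replicates 2 and 3 (adjusted p up to 0.243). Mutant-labelled replicate 2 likewise decided Rab3a (adjusted p = 0.0787 without it). The brighter Vamp2 probe set was lost without wild-type-labelled replicate 1 or 3 or mutant-labelled replicate 3 (adjusted p = 0.0791, 0.0743 and 0.165).

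At 8 and 16 h 0 members were called between genotypes, beside 3.59% and 6.37% of all probe sets lower in the mutant. At an unadjusted p under 0.05, 3 and 1 members differed in limma. No share of all probe sets at that unadjusted p is given, so whether these counts are unusual cannot be read from them. At 48 h Syt1 was lower in the mutant-labelled arrays, 2069, 1312 and 1912 against 2438, 2333 and 2729, without overlap, by -0.53 ± 0.15 (adjusted p = 0.0183). This 1 call stood beside 11.0% of all probe sets. It did not pass without mutant-labelled replicate 2 or wild-type-labelled replicate 3 (adjusted p = 0.143 and 0.0863), nor with all 30 arrays (0.48).

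Averaged over 0, 8, 16 and 48 h, 5 of the 7 probe sets, of 4 genes, were lower in the mutant-labelled arrays. The differences were -0.52 ± 0.09 (adjusted p = 0.000142) and -0.21 ± 0.05 (adjusted p = 0.00433) for the Vamp2 probe sets, -0.52 ± 0.14 (adjusted p = 0.00605) for Rab3a, -0.32 ± 0.08 (adjusted p = 0.00238) for Syt1 and -0.30 ± 0.10 (adjusted p = 0.0196) for Stx1a. Snap25 differed by -0.06 ± 0.08 (adjusted p = 0.558) and Syp by -0.16 ± 0.12 (adjusted p = 0.286), and neither passed. Of all probe sets 24.7% were lower in the same comparison, so lower calls were common. The count of members was 5 whichever array was left out and 2 with all 30 arrays. The median of the 7 probe sets was -0.30. On the brightest probe set of each of the 6 genes it was -0.25, beside -0.03 over 5396 genes counted in the same way. Genotypes were compared by label only, and a batch that differs with the label and genotype cannot be told apart here.

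**Figure D3:**
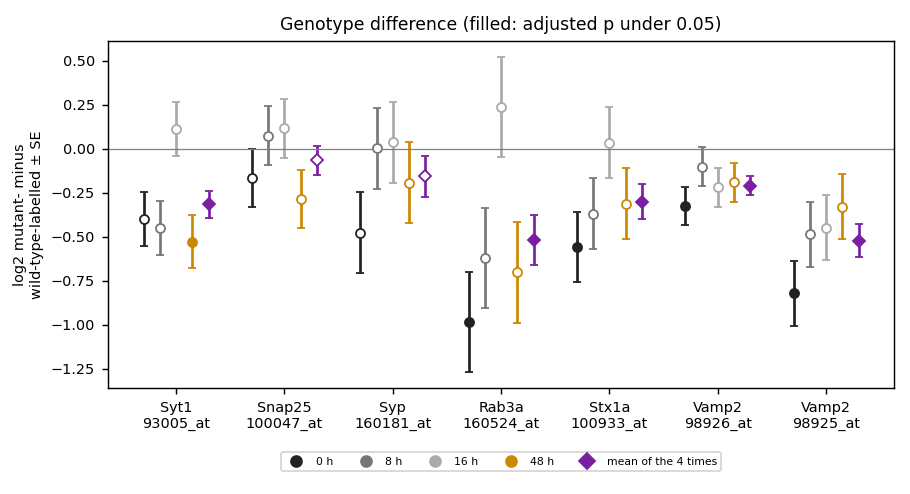
Log2 difference, mutant-labelled minus wild-type-labelled, ± SE (y axis) for each tested probe set (x axis) at 0, 8, 16 and 48 h and averaged over these 4 times, filled where the adjusted p was under 0.05. Rab3a at 0 h lay lowest at -0.98, and the mean over the times was below 0 for all 7 probe sets, called for 5.

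The mutant-labelled 2 h arrays carried the lowest single readings of Syt1, Stx1a, the brighter Vamp2 probe set and the dimmer one. Syt1 read 303, 983 and 3700.5 in replicates 1 to 3, against 3939.7, 4089 and 4498 in the wild-type-labelled 2 h arrays and 4572, 3393 and 3383 in the mutant-labelled 0 h arrays. Replicates 1 and 2 were low and replicate 3 lay inside the 0 h range. The fitted changes were -1.86 ± 0.45 (adjusted p = 0.00682) from 0 h and -2.01 ± 0.45 (adjusted p = 0.00548) from wild type at 2 h. With replicate 2 alone, whose Gapdh value of 0.15 was nearest to the other arrays though above them all, they were -1.93 and -2.08. A single array gives no spread of its own. Without replicate 1 the change from 0 h was -0.97 (adjusted p = 0.0576).

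The dimmer Vamp2 probe set read 24.5, 431 and 51.3 in the mutant-labelled 2 h arrays, 528, 506 and 497 in the wild-type-labelled 2 h arrays and 569, 371 and 461 in the mutant-labelled 0 h arrays. Only replicates 1 and 3, those with Gapdh values of 5.59 and 1.27, lay below the floor of 113.7 and were set to it, so the floor sets the size of the fitted changes and of their errors. These changes were -1.38 ± 0.32 (adjusted p = 0.00456) from 0 h and -1.52 ± 0.32 (adjusted p = 0.00292) from wild type. With replicate 2 alone, a single array, they were -0.10 and -0.24. The brighter Vamp2 probe set read 3429, 8417 and 3816 on the same arrays, lower in replicates 1 and 3 than on any of the other 27 arrays. Snap25 read 7454, 4323 and 5601, of which replicate 1 was above all other arrays. The part of RNA quality in these 2 h values was not tested.

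Of the 7 probe sets 2 were called lower in mutant-labelled 2 h arrays against 0 h, beside 10.3% of all probe sets, and 2 against wild type at 2 h, beside 7.41%. Fits of only the 2 groups compared called 0 of the 7 in both comparisons. Without mutant-labelled 2 h replicate 1 the first count was 0, and without replicate 2 the second was 4.

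**Figure D4:**
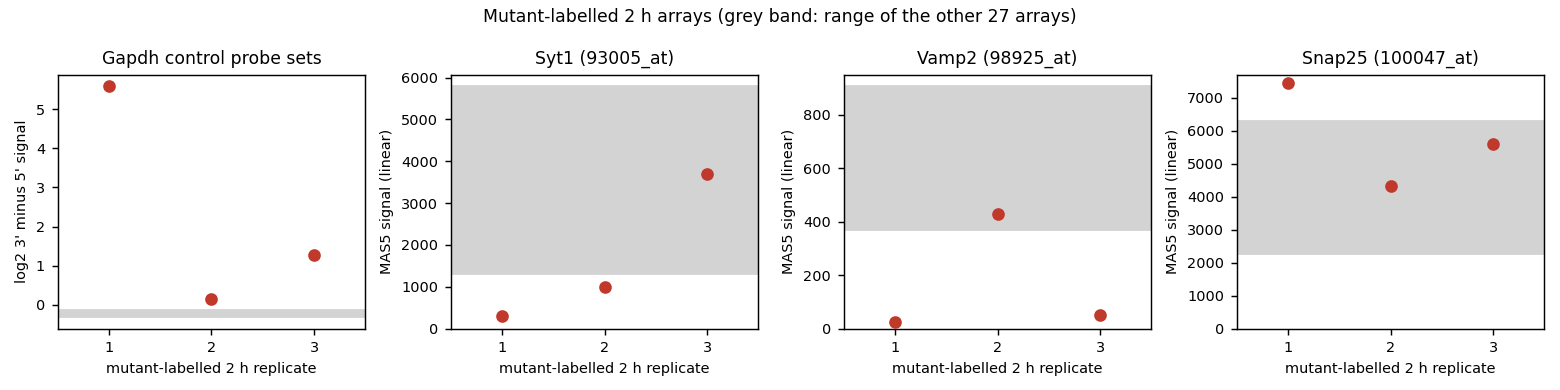
Gapdh control log2 difference, 3' minus 5', and MAS5 signal (linear axis from 0) of Syt1, the dimmer Vamp2 probe set and Snap25 (y axes) on each of the 3 mutant-labelled 2 h arrays (x axis, replicate), with a grey band from the lowest to the highest of the other 27 arrays. Syt1 lay below the band in replicates 1 and 2, the Vamp2 probe set in replicates 1 and 3, and all 3 Gapdh values above it.

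Other genes of the vesicle cycle were taken from a list of 106, of which 58 were on the array and 42 were tested, on the brightest probe set of each. In the mutant at 48 h 5 of the 42 fell and 2 rose, beside 6.79% of all 6968 probe sets that fell and 6.46% that rose, and the median change was -0.03, beside 0.02 over 5396 genes. In wild type at 48 h 11 fell and 0 rose, beside 9.04% and 9.8%, with a median of -0.18, beside -0.02. Of those 11, 2 of 11 tested were fusion proteins, 2 of 4 calcium sensors, 1 of 4 genes of the RAB3 cycle and active zone, 2 of 8 vesicle membrane proteins and tethers, and 4 of 15 retrieval genes.

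Syt4, a synaptotagmin relative of Syt1, averaged 348 ± 109 at 48 h and 776 ± 134 at 0 h in the mutant (SD, n = 3 each), a change of -1.19 ± 0.29 (adjusted p = 0.00915), and -1.32 ± 0.29 (adjusted p = 0.00265) in wild type. Cplx2, complexin 2, which binds the SNARE complex, averaged 490.5 ± 189 at 48 h and 1029 ± 200.5 at 0 h in the mutant, a change of -1.11 ± 0.26 (adjusted p = 0.00783), and -0.96 ± 0.26 (adjusted p = 0.0135) in wild type. Synj2, a phosphoinositide phosphatase of vesicle retrieval, fell by 0.54 in the mutant and 0.95 in wild type, and Hspa8, the chaperone that strips clathrin coats, by 0.65 and 0.58. Rab3b, a relative of Rab3a, averaged 220.2 ± 129 at 48 h and 968 ± 179.5 at 0 h in wild type, a change of -2.25 ± 0.43 (adjusted p = 0.000939), with its lowest 48 h array, at 101.1, below the floor. Rab3d, the RAB3 form of secretory cells, rose by 0.55 ± 0.14 (adjusted p = 0.0114) in the mutant.

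Between genotypes over 0, 8, 16 and 48 h, 10 of the 42 were lower and 4 higher in the mutant-labelled arrays, beside 24.7% of all probe sets lower and 17.9% higher. The lower calls of the list were thus near the share over the whole array. Those lowest were Snap91, a clathrin adaptor (-0.55 ± 0.09 (adjusted p = 4.86e-05)), Napa, alpha-SNAP, which takes used SNARE complexes apart (-0.50 ± 0.11 (adjusted p = 0.000975)), Vamp3, a VAMP2 relative (-0.48 ± 0.13 (adjusted p = 0.00441)), and Pclo, an active zone scaffold (-0.47 ± 0.10 (adjusted p = 0.00107)). The list's median was -0.08, beside -0.03 over all 5396 genes.

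**Figure D5:**
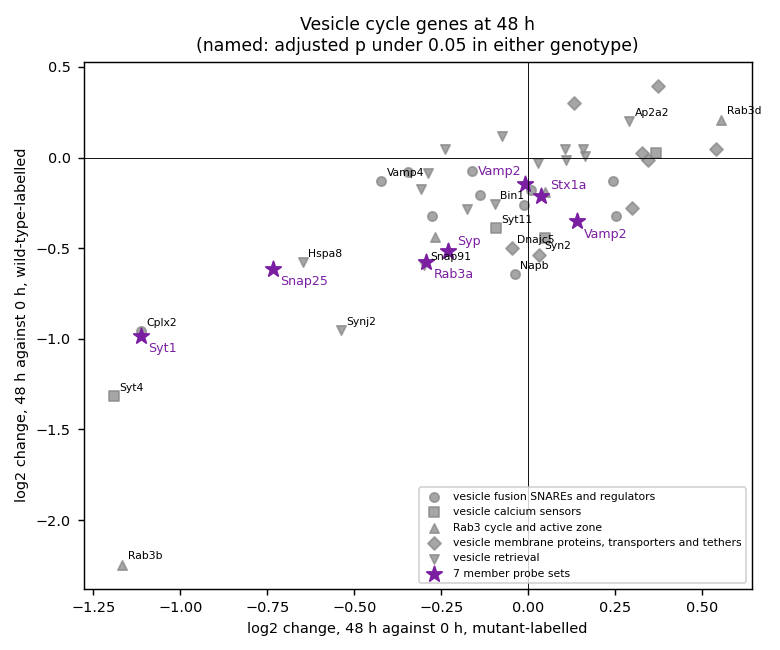
Log2 change at 48 h against 0 h in mutant-labelled (x axis) and wild-type-labelled (y axis) arrays for the 42 tested genes of the vesicle cycle (grey, shape by group) and the 7 member probe sets (stars). Syt1 and Cplx2 nearly coincide near -1.1 and -1, Snap25 lies with Hspa8, and both Vamp2 stars and Stx1a lie near 0 on the mutant axis.

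Markers of mature olfactory sensory neurons moved at the same time. On the array were 3 of 12 listed, Omp (olfactory marker protein), Adcy3 and Cnga2 (cyclase and channel of odour transduction). None was at the floor on most arrays. The lowest mutant-labelled 2 h array of Omp, however, read 128.5, near the floor of 113.7. The summed signal of the 3 was 26840 to 36940 at 48 h and 46710 to 52440 at 0 h in the mutant. In wild type it was 24330 to 29690 at 48 h and 44210 to 52590 at 0 h. All 3 fell at 48 h in both genotypes, Omp by 0.60 in the mutant and 0.78 in wild type. Between genotypes over the 4 times, Omp was higher in the mutant-labelled arrays by 0.36 ± 0.05 (adjusted p = 2.35e-05), while Adcy3, at 0.06 ± 0.07 (adjusted p = 0.46), and Cnga2, at -0.13 ± 0.08 (adjusted p = 0.178), did not pass. At 0 h none of the 3 passed, with differences of 0.25 for Omp, -0.25 for Adcy3 and -0.33 for Cnga2. The 7 of 9 listed immature neuron genes on the array summed to 63990 to 79960 at 48 h and 56350 to 68470 at 0 h in the mutant, and 56210 to 65130 at 48 h and 59440 to 74800 at 0 h in wild type.

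Other cells could also carry member transcripts. Markers of other nerve or endocrine cells, 10 of 14 on the array, summed to 6982 to 8672 at 48 h and 8962 to 12380 at 0 h in the mutant, and 7397 to 7446 at 48 h and 11080 to 12320 at 0 h in wild type, with Vip, Nefl and Nefm at the floor on most arrays. Macrophage markers, 8 of 8 on the array, summed to 24880 to 29620 at 48 h and 17280 to 22200 at 0 h in the mutant, and 23640 to 29480 at 48 h and 13630 to 16710 at 0 h in wild type. Glia markers, 6 of 8 on the array, summed to 18730 to 22400 at 48 h and 17740 to 20230 at 0 h in the mutant, and 9572 to 20920 at 48 h and 16980 to 19600 at 0 h in wild type. Sustentacular and gland markers, 2 of 7 on the array, summed to 69790 to 92960 at 48 h and 60680 to 69570 at 0 h in the mutant, and 47610 to 63910 at 48 h and 52330 to 58370 at 0 h in wild type. The macrophage sums at 48 h thus lay above those at 0 h in both genotypes, and the nerve or endocrine sums below. Such sums lean on their brightest genes. Of the 3 nerve or endocrine genes tested, 2 were called lower and 1 higher in the mutant at 48 h, and 2 lower in wild type. The part of these cells in the members' changes was not tested.

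The 48 h change of each member was then set against the mean change of Omp, Adcy3 and Cnga2, averaged over both genotypes. This comparison was chosen after the values were seen, with reference genes already known to fall. Syt1 fell further than the mean of these 3 genes, by -0.29 ± 0.10 (adjusted p = 0.0108), as did 0.646% of all probe sets. Of the 3 genes, 1 was itself called lower than their mean. Because 93.2% of all probe sets were called higher, the adjustment altered little, and the unadjusted limma p of Syt1 was 0.00974. The adjusted p is thus in effect an unadjusted one. Against Omp alone Syt1 differed by -0.36 (adjusted p = 0.00423). The call did not pass with only the groups compared (adjusted p = 0.0542) or with all 30 arrays (0.281).

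It had first been tested by exact two-sided permutation of the 48 and 0 h arrays within each genotype (400 permutations, smallest p 0.005), in 14 tests, 7 probe sets against each of 2 references. Of these 8 had an unadjusted p under 0.05, among them Syt1 with exact p = 0.04 against the 3 genes and 0.01 against Omp. The fit over all probe sets took its place because those p-values could be adjusted only over the members themselves. Its own adjustment, though, altered p little. After adjustment over the members, the exact p of Syt1 against the 3 genes had not passed. The extra fall of Syt1 therefore rests on the choice of test.

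Against the same 3 genes, Stx1a (0.67), both Vamp2 probe sets (0.68 and 0.65) and Syp (0.38) were higher. So were 93.2% of all probe sets, and these 4 calls are not particular to the members. Syp did not pass against Omp alone (adjusted p = 0.0739). Snap25, at 0.08 ± 0.10 (adjusted p = 0.418), and Rab3a, at 0.32 ± 0.20 (adjusted p = 0.134), did not pass against the 3 genes.

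Among the members, log2 signals of Snap25 and Syt1 followed each other most closely over the 27 arrays (Pearson r = 0.83), while Vamp2 and Syt1 gave r = 0.32 and Rab3a and Snap25 0.29. The genes most like Snap25 among those tested were Vsnl1 (r = 0.91), the neuronal calcium sensor visinin-like 1, and Olfm1 (0.91), olfactomedin 1. Those most like Syt1 were Slc8a1 (0.89), a sodium and calcium exchanger, and Cacnb2 (0.89), a calcium channel subunit. For Syp they were Cldnd1 (0.87) and Hspe1 (0.81), for Stx1a Mid1ip1 (0.78) and Tbc1d24 (0.77), for Vamp2 Hmgcs1 (0.78) and Klc1 (0.78), and for Rab3a Nop2 (0.74) and Plaa (0.70). These correlations are descriptions, since the arrays share their scaling and the effects of time and genotype.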

How the data were processed

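Per the submitters' processing notes, the authors made the deposited values with MAS5. They are linear signal intensities, 1 per probe set and array, of biotin-labelled total RNA from microdissected epithelium, per the labels' protocols. The 2% trimmed means, 1500.7 to 1500.9, were read from the values. The MAS5 version and genome build are not given in the sources used here, so no gene positions are printed beyond the RefSeq promoter windows.

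Of 12488 probe sets 66 were controls. Of the rest 10833 had 1 gene in the platform annotation, 396 several and 1193 none, and all 8 member probe sets matched the RefSeq gene table by gene identifier. Signals below 113.7, the pooled 25th percentile, were set to it before log2. Tests covered the 6968 probe sets above the pooled median of 572 on 3 or more arrays, and 5454 were left out. Means of the 9 groups without mutant-labelled 2 h, or of all 10, were fitted in limma 3.58.1 (R 4.3.3), with two-sided p-values adjusted by Benjamini-Hochberg and a threshold of 0.05. Every member is reported. Of the other vesicle genes, up to 4 with the largest change past the threshold per comparison could be named, and of genes with a like pattern the 2 with the highest r for each member. Synj2 and Hspa8 were each within that rule in 1 genotype. Members and lists were chosen with earlier results of these data known.

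Alternatives were no filter, a pseudocount of 16, quantile normalization, a replicate block, robust moderation with a variance trend, only the groups compared, all 30 arrays, replicate 2 alone of the mutant-labelled 2 h arrays, and each array left out. Same-numbered arrays were checked for shared deviations from their group means, with a mean r of -0.008, against 0.004 for different numbers. On simulated arrays with 100 of 6968 probe sets changed at each size, the fit recovered 92% of 2-fold and 99% of 4-fold changes for the mutant at 48 h with 10 unchanged called, and 93% and 99% for wild type with 17. The simulated noise was normal and independent between probe sets. Changes below 2-fold were not simulated, so how often the fit would miss them is not known. Tables used Python 3.11.15 with numpy 2.4.6 and pandas 2.3.3, and figures matplotlib 3.10.9.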

Additional observations from a re-analysis of the deposited data

How the results depend on the processing

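The counts of member probe sets called kept to within 1.5 times of those reported in 252 of 292 recomputations. Counts of 0 that stayed 0 are among the 252, so this share makes the calls look steadier than they were. Without a filter on low signals, wild type at 2 h gave 0 and the wild-type test over all times 2. In fits of only the groups compared, wild type at 16 h gave 2, the mutant at 2 h 0 and at 48 h 1, and mutant against wild type 2 at 0 h, 0 at 2 h, 1 at 16 h and 0 at 48 h. With all 30 arrays, wild type at 16 h gave 0 and at 48 h 1, the mutant at 48 h 1, mutant against wild type 1 at 0 h, 0 at 48 h and 2 over the 4 times, the tests over all times 1 in each genotype, and the comparison with mature neuron genes 3. The difference of the 2 h changes of the dimmer Vamp2 probe set was -0.70 and did not pass. With replicate 2 alone of the mutant-labelled 2 h arrays, a single array, it turned to 0.577. The causes of these shifts were not tested, except that the spread of Syt1 widens when the mutant-labelled 2 h arrays enter.

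Leaving out each array in turn gave 0 to 0 calls for wild type at 2 h and at 8 h, 1 to 2 at 16 h and 1 to 2 at 48 h. It gave 0 to 3 for the mutant at 2 h, 0 to 0 at 8 and 16 h and 2 to 2 at 48 h. For mutant against wild type it gave 1 to 6 at 0 h, 2 to 4 at 2 h, 0 to 0 at 8 and 16 h, 0 to 3 at 48 h and 5 to 5 over the 4 times. The tests over all times gave 2 to 3 in the mutant and 2 to 4 in wild type, the difference of changes 0 to 0, and the comparison with mature neuron genes 4 to 6. The wild-type test over all times gave 2 without 48 h replicate 1 or 2. At 48 h between genotypes, leaving out mutant-labelled replicate 1 gave 3.

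The replicate numbers did not pair the arrays. With the replicate number as a block, mutant against wild type at 0 h gave 3 calls, since Stx1a had an adjusted p of 0.0554, and the 5 calls over the 4 times and the 2 calls at 48 h in each genotype stayed 5, 2 and 2. Dim signal limits the second Rab3a probe set, and the second Vamp2 probe set exceeded the pooled median on only 14 arrays.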
